A study of Mus musculus with 12 samples.

Results

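The 39 genes described here encode transcription factors and receptors that mark the primitive streak, the mesoderm that leaves it and the definitive endoderm. They were taken by gene symbol, and all 39 were found among the 19938 genes that a probe set with a single symbol measured on the arrays, each through 1 probe set. They comprised 7 streak and organizer factors, 3 posterior factors, 5 definitive endoderm genes, 7 paraxial mesoderm genes, 6 heart and lateral mesoderm genes, 5 blood and endothelium genes and 6 mesenchyme genes.

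The arrays, 12 of the Affymetrix Mouse Gene 1.0 ST type, measured messenger RNA over a time course that followed the loss of Esrrb, a nuclear receptor of the pluripotency network, in mouse embryonic stem cells (mESCs). Cells sampled at days 1, 3 and 5 had been grown without doxycycline (Dox) for that long, and day 0 cells had 1 µg/ml Dox, with 3 biological replicates and 3 arrays per day. Every culture was of Esrrb_R, a rescue clone of the AINV15 line in which a short hairpin RNA silences endogenous Esrrb and an shRNA-immune, GFP-tagged Esrrb copy is made only with Dox, and all were in serum with Lif on gelatin. The line is 1 clone, and no array was a control for Dox or for time alone, so that the loss of Esrrb, the removal of Dox and days in culture cannot be told apart.

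The primitive streak is the site where epiblast cells of the gastrulating embryo turn into mesoderm and definitive endoderm, under Wnt, Bmp and Nodal signals. Eomes, Mixl1 and Gsc act at the streak, Foxa2 and Hhex in the anterior streak and endoderm, and factors such as Tbx6, Msgn1, Mesp1 and Tcf15 mark the mesoderm as it is laid down and patterned. Several of these genes have other sites of expression: Pdgfra, Foxa2 and Hhex are also made in primitive or visceral endoderm, and Kit is a receptor of hematopoietic and germ cells.

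Of the 39 genes, 21 passed the test in none of the 5 comparisons between days and 18 in at least 1, beside 9937 of all 19938 genes. Against day 0, 17 passed it at 1 day or more, beside 8988 of all genes. These counts were not tested against those of all genes. Kit was 2.80-fold higher at day 5 than at day 0, Tcf15 was 2.83-fold lower and Prrx1 was 2.40-fold lower. These 3 were the only members that were called with a change over 2-fold against day 0. Among all genes, 778 were called with such a change. Foxa2, Msx2, Mef2c and Mixl1 rose at day 5 by less, Eomes dipped at day 3 and rose again by day 5, and Tbx6, Msgn1, Mesp1, Mesp2, Nkx2-5, Hand1 and Hand2 were called in none of the 5 comparisons. The heat map of all members sets the 12 arrays side by side.

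**Figure D1:**
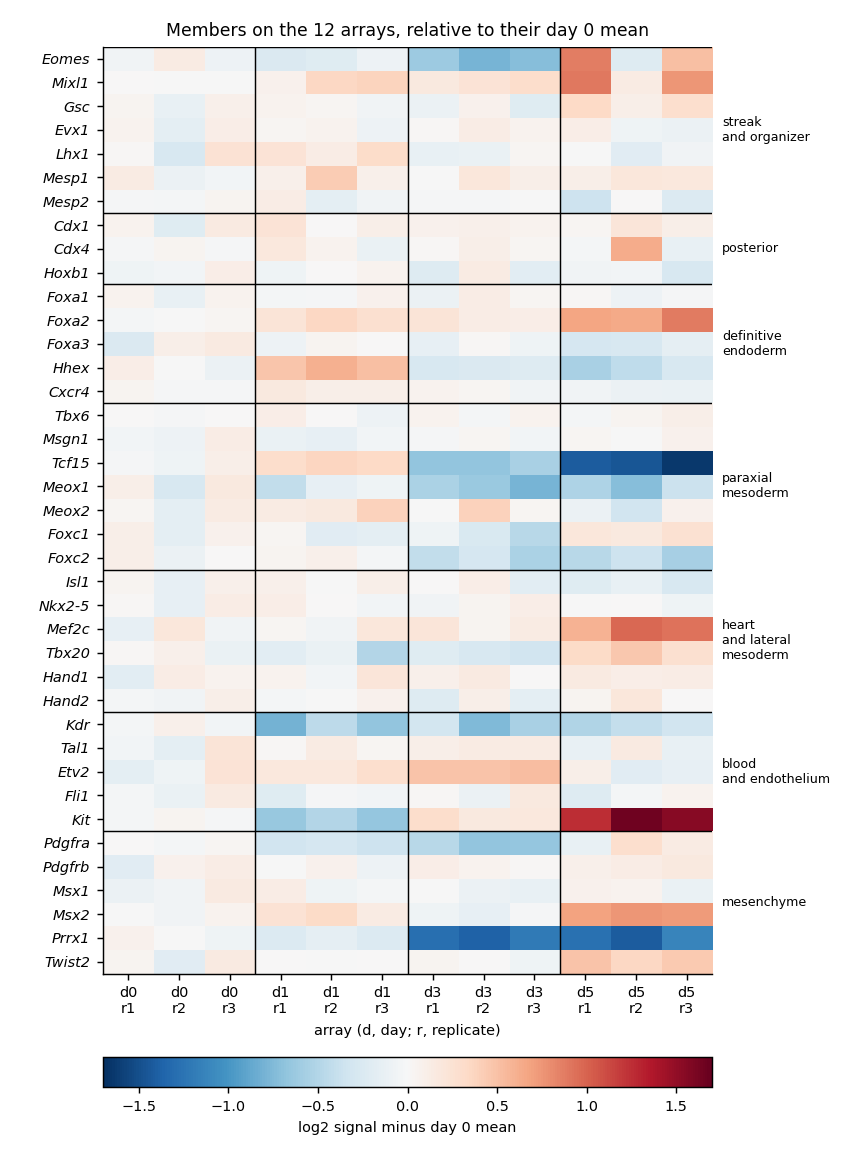
Log2 signal of the 39 members (rows, by role) on the 12 arrays (columns, by day and replicate) minus the mean of the 3 day 0 arrays of the same gene; red is higher and blue lower. The strongest colors lie in Tcf15, Prrx1 and Kit, and most rows, such as Tbx6, Nkx2-5 and Hoxb1, stay pale.

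Promoter sequence gives the context for the genes on which the results turn. The reference table of RefSeq starts (GRCm38.p6, 250 bases before to 50 after each start) held 37 promoters of 31 of the members, and Mixl1, Cdx1, Tcf15, Meox1, Foxc2, Hand1, Fli1 and Pdgfrb are named only. Kit and Prrx1 are shown because they had the largest changes among members with a promoter, and Mef2c and Foxa2 because both rose at day 5 and hold 1 of the 4 motifs searched on both strands. The motifs were AAGGTCA, part of the element that Esrrb binds, AGGTGTGA for T-box factors, ATCAAAG for Tcf and Lef factors and GTAAACA for forkhead factors. Capitals mark a motif, and each line is the gene strand, 5′ to 3′:
Kit, chr5:75574737-75574986, + strand, the 250 bases before the start: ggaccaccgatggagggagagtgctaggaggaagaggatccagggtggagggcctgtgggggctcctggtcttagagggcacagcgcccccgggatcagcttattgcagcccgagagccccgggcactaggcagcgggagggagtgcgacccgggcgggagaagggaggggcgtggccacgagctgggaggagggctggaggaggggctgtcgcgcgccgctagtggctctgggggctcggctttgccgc
Prrx1, chr1:163313651-163313900, - strand, the 250 bases before the start: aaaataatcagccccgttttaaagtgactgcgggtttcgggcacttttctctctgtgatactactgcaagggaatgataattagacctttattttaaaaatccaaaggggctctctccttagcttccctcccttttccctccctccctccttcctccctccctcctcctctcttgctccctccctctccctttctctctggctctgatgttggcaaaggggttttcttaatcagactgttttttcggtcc
Mef2c, chr13:83573357-83573606, + strand, the 250 bases before 1 of its starts: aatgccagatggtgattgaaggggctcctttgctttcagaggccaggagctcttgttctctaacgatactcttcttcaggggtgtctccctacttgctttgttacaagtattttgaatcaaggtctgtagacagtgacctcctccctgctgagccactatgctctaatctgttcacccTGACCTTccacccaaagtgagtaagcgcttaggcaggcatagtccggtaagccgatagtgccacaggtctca
Foxa2, chr2:148045433-148045461, - strand, a stretch of 29 bases just after 1 of its starts: acaggcaaagaATCAAAGaccagtggaca

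The capitals in Mef2c are the reverse complement of AAGGTCA, 66 to 72 bases before that start, and it was the 1 member promoter of 37 with this motif (2.7%), against 4.72% of all 32851 promoters of this length. The Foxa2 match to ATCAAAG lies at bases 15 to 21, counting the start as 1. ATCAAAG was found in 3 member promoters (8.11%), of Foxa2, Mesp1 and Msgn1, against 3.73% of all promoters. AGGTGTGA was found in Mesp1 alone (2.7% of the member promoters and 1.28% of all), and GTAAACA in Foxa1 alone (2.7% and 3.65% of all). The windows shown for Kit and Prrx1 hold none of the 4 strings. A match is a run of letters in a window and no measurement of binding.

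Signals are log2 values, so that a difference of 1 is a doubling, and the sizes of changes below are on the log2 scale unless called a fold. Changes were tested with limma in 1 model of the 12 arrays and were called when the p adjusted over all 19938 genes was under 0.05. A background limit was set on each array at the 95th percentile of 1228 olfactory, vomeronasal and taste receptor genes, genes that stem cells are not known to use, and it lay between 6.13 and 6.35. With this limit, 30 members were above background on every array. Evx1, Mesp1, Cdx4 and Meox2 were at background on all 12 arrays, which was so for 24.6% of all genes, and Meox1, Foxc1, Foxc2, Isl1 and Mef2c were under the limit on some. The signals of Evx1, a homeobox factor of the posterior streak, ran between 5.68 and 5.98, and those of Cdx4, a caudal-type homeobox factor, between 4.06 and 4.82.

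The arrays carried the change that the design names. Esrrb had signals of 11.59, 11.54 and 11.63 at day 0, 9.09 to 9.16 at day 1, 8.06 to 8.34 at day 3 and 8.13 to 8.28 at day 5, and the 10 mESC markers measured, Pou5f1 and Nanog among them, were above background throughout. Of these 10 markers, 7, 8 and 10 were called lower at days 1, 3 and 5 than at day 0 (70%, 80% and 100%, against 4.48%, 13.1% and 17.6% of all genes). The list mean lay between 11.41 and 11.47 at day 0, 10.99 and 11.01 at day 1, 10.59 and 10.68 at day 3 and 10.56 and 10.67 at day 5. Of 16 markers of primitive and visceral endoderm, Gata4 and Gata6 were bright already at day 0, at 10.62 and 10.83, and Afp was at background throughout. The mean of that list lay between 9.92 and 10.01 at day 0, 10.19 and 10.21 at day 1, 10.07 and 10.19 at day 3 and 10.06 and 10.27 at day 5. Of 17 fibroblast markers, listed because the line is maintained on embryonic fibroblasts, Lum and Fap were at background throughout, and the list mean lay between 7.58 and 7.68 at day 0, 7.58 and 7.61 at day 1, 7.30 and 7.33 at day 3 and 7.59 and 7.72 at day 5. In such bulk RNA, fewer cells of a type and less RNA per cell cannot be told apart.

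At day 1, 4 of the 39 members were called higher than at day 0 (10.3%, against 6.45% of all genes) and 3 lower (7.69%, against 4.48%). The 4 were Foxa2, Hhex, Tcf15 and Msx2, and the 3 were Kdr, Kit and Pdgfra. At day 3, 1 member, Etv2, was called higher (2.56%, against 13.5% of all genes) and 8 lower (20.5%, against 13.1%): Eomes, Hhex, Tcf15, Meox1, Foxc2, Kdr, Pdgfra and Prrx1. At day 5, 8 were called higher (20.5%, against 17.4%) and 6 lower (15.4%, against 17.6%). Over the members the median changes at days 1, 3 and 5 were 0.01, -0.01 and 0.01, beside 0.01, 0.00 and -0.02 over all genes. The shares of days 1 and 5 lay near those of all genes, and none of the shares was tested against them.

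Between later days, calls of members at day 3 were mostly lower and at day 5 mostly higher. At day 3, 1 member was called higher than at day 1 (2.56%, against 9.2% of all genes) and 7 lower (17.9%, against 11.6%). At day 5, 10 members were called higher than at day 3 (25.6%, against 13.0% of all genes) and 2 lower (5.13%, against 12.2%). The 10 were Eomes, Gsc, Foxa2, Foxc1, Mef2c, Tbx20, Kit, Pdgfra, Msx2 and Twist2, and the 2 were Tcf15 and Etv2. Over all 4 days, the moderated F test called 19 of the 39 (48.7%, against 45.6% of all genes).

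**Figure D2:**
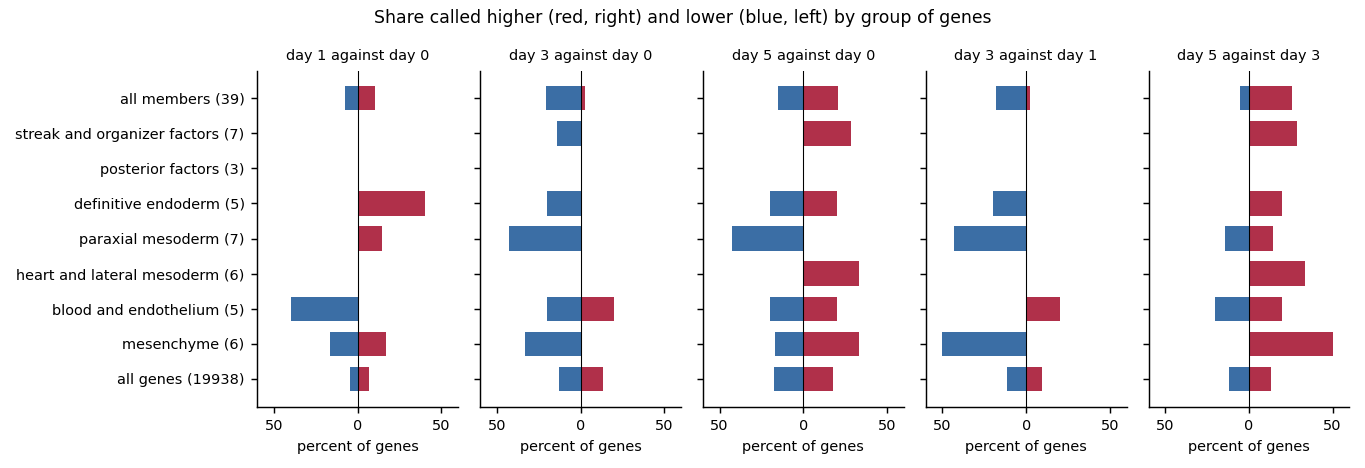
Percent of genes called higher (red, to the right) and lower (blue, to the left) in each of the 5 comparisons, for all 39 members, for each role (number of genes in brackets) and for all 19938 genes. For all 39 members, the longer bar runs to the left at day 3 against day 0 and to the right at day 5 against day 3. Roles differ: blood and endothelium had 20.0% each way in both, and paraxial mesoderm 14.3% each way at day 5 against day 3. Posterior factors had no calls.

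Among the streak and organizer factors, 2 of 7 rose at day 5 (28.6%, against 17.4% of all genes) and 1 fell at day 3 (14.3%, against 13.1%). Eomes, a T-box factor that is needed for definitive endoderm and cardiac mesoderm, had signals of 7.91, 8.11 and 7.88 at day 0, 7.72, 7.76 and 7.88 at day 1, 7.36, 7.18 and 7.24 at day 3 and 8.84, 7.75 and 8.48 at day 5. The 3 day 3 arrays lay below all others, and the day 5 arrays were spread over more than 1 log2 unit, across the range of days 0 and 1. Eomes fell by 0.71 ± 0.19 (SE) at day 3 against day 0 (adjusted p = 0.0155) and was 1.10 ± 0.19 higher at day 5 than at day 3 (adjusted p = 0.00102), while day 5 against day 0 (0.39 ± 0.19) missed the threshold with an adjusted p of 0.149. Leaving out replicate 2 of day 0 (adjusted p = 0.0585) or replicate 2 of day 3 (adjusted p = 0.0516) ended the day 3 call. Without day 5 replicate 2, the lowest of its day, the day 5 change was 0.69 (adjusted p = 0.000345).

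Mixl1, a homeobox factor of the streak that acts in endoderm formation, had 6.60 on each of the day 0 arrays, 6.68, 6.96 and 6.98 at day 1, 6.77, 6.83 and 6.90 at day 3 and 7.50, 6.74 and 7.35 at day 5. All later arrays were above day 0, and day 5 replicate 2 was again the low one of its day, within the range of days 1 and 3. Mixl1 was 0.60 ± 0.15 higher at day 5 than at day 0 (adjusted p = 0.00715), and the change was 0.83 without day 5 replicate 2 and 0.44 without day 5 replicate 1. Changes at day 1 (0.27, adjusted p = 0.315) and day 3 (0.23, adjusted p = 0.317) missed the threshold.

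Gsc, the goosecoid homeobox repressor of the organizer, had 6.87, 6.70 and 6.91 at day 0, 6.88, 6.86 and 6.76 at day 1, 6.73, 6.89 and 6.62 at day 3 and 7.16, 6.93 and 7.11 at day 5. The 3 day 5 arrays were the highest, with replicate 2 just above the highest day 0 array, and the other 3 days overlapped. Gsc was 0.24 ± 0.09 higher at day 5 than at day 0 (adjusted p = 0.0441) and 0.32 ± 0.09 higher than at day 3 (adjusted p = 0.0142). The first call was lost when any of 8 single arrays was left out, day 0 replicates 1 and 2, the 3 day 1 arrays, day 3 replicate 1 and day 5 replicates 1 and 3 (adjusted p of 0.0516 to 0.162), and the second without day 3 replicate 3 or day 5 replicates 1 or 3 (0.0535 to 0.0682).

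The remaining 4 streak factors were not called. Lhx1, a LIM homeobox factor of the organizer, ran from 6.25 to 6.84 over the 12 arrays. Mesp1 and Mesp2, bHLH factors of cardiac and presomitic mesoderm, had day means of 5.75 to 5.95 and of 6.36 to 6.56, and Evx1 was at background.

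The low reading of day 5 replicate 2 was shared by several streak genes. It was the lowest of the 3 day 5 arrays for Eomes, Mixl1, Gsc and Lhx1, but the highest for Mesp1 and Mesp2. It was also the lowest for 10 of 16 other streak signals, among them Wnt3, Wnt8a, Sp5, Fgf8 and Nodal. Over all 39 members it was the lowest for 14 (35.9%), against 28.9% of all genes. Wnt8a, a Wnt ligand of the streak, had 8.45, 7.61 and 8.20 on the 3 day 5 arrays, against 6.71, 6.44 and 6.79 at day 0, and Wnt3, the ligand that starts the streak, had 7.71, 7.08 and 7.41, against 6.63, 6.47 and 6.72. For 11 of the 16 signals replicate 1 was the highest, against 27.5% of all genes. The other way round, replicate 1 was the lowest array for 7 of 11 other endoderm genes, among them Gata4, Gata6 and Sox17, against 39.0% of all genes. These genes were chosen after their values were seen, 3 arrays a day give no test of an array, and the part of any difference in culture or sampling was not tested.

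**Figure D3:**
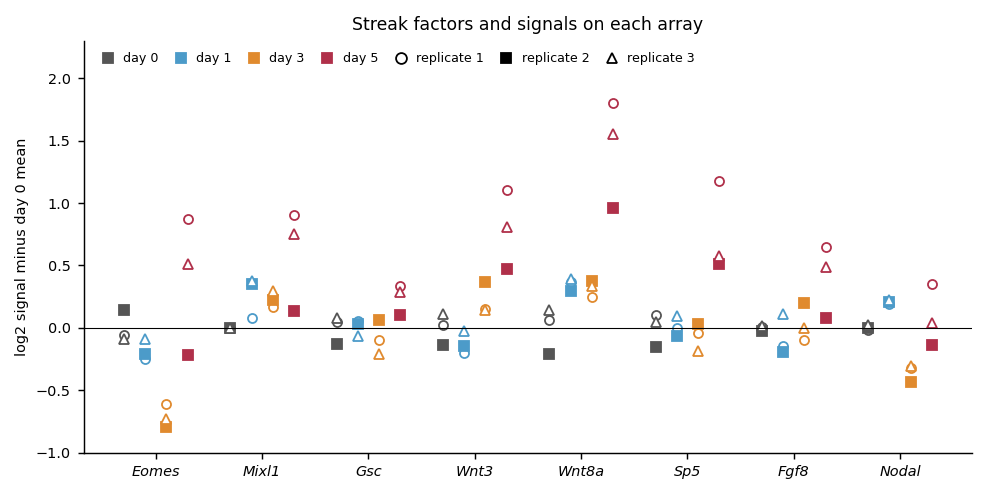
Log2 signal of 3 streak factors (Eomes, Mixl1, Gsc), 4 ligands (Wnt3, Wnt8a, Fgf8, Nodal) and the Wnt target Sp5 on each array, minus the day 0 mean of the gene; color gives the day and marker shape the replicate. At day 5 the filled square, replicate 2, is the lowest of the 3 for all 8 genes.

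The posterior factors, Cdx1, Cdx4 and Hoxb1, which pattern the posterior body axis, were not called in any comparison. Cdx1 was above background, with day means of 7.76, 7.88, 7.83 and 7.87 at days 0, 1, 3 and 5, and Hoxb1 had 7.12, 7.11, 7.03 and 6.99. The largest deviation was that of Cdx4 on day 5 replicate 2, at 4.82, which is still far under the background limit.

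Among the definitive endoderm genes, Foxa2 and Hhex changed, in opposite directions by day 5. At day 5, 1 of 5 was called higher and 1 lower (20.0% each, against 17.4% and 17.6% of all genes). Foxa2, a forkhead pioneer factor of endoderm and node, had 7.53, 7.57 and 7.60 at day 0, 7.78, 7.92 and 7.84 at day 1, 7.79, 7.70 and 7.68 at day 3 and 8.24, 8.21 and 8.45 at day 5. Every later array was above the day 0 arrays, and the day 5 arrays were above all others. Foxa2 rose by 0.73 ± 0.07 at day 5, a fold of 1.66 (adjusted p = 2.64e-06), and by 0.28 ± 0.07 at day 1 (adjusted p = 0.0208), a call that was lost without day 0 replicates 1 or 2 or day 1 replicates 2 or 3 (adjusted p of 0.0555 to 0.0866). Its promoter stretch with the Tcf and Lef letters is shown above.

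Hhex, a homeobox factor of the anterior endoderm and of blood precursors, had 7.67, 7.54 and 7.45 at day 0, 8.02, 8.16 and 8.06 at day 1, 7.28, 7.31 and 7.34 at day 3 and 7.0, 7.12 and 7.28 at day 5. The day 1 arrays stood above all others, and the arrays of days 3 and 5 stood below day 0. Hhex was 0.53 ± 0.08 higher at day 1 than at day 0 (adjusted p = 0.000802) and 0.42 ± 0.08 lower at day 5 (adjusted p = 0.000788). The fall at day 3 (-0.25 ± 0.08, adjusted p = 0.0316) was lost without any 1 of day 0 replicates 1 and 2 and the 3 day 3 arrays (adjusted p of 0.0602 to 0.129), and day 3 was 0.77 lower than day 1 (adjusted p = 2.38e-05).

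Foxa1 and Foxa3, the other forkhead factors of the group, and Cxcr4, a chemokine receptor of migrating endoderm, were called in none of the 5 comparisons. Foxa1 had day means of 6.67 to 6.71, and Foxa3 of 6.54 to 6.78. Cxcr4 had 7.36, 7.49, 7.37 and 7.27 at days 0, 1, 3 and 5 and was called only by the F test (adjusted p = 0.0278).

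Of 11 other endoderm genes measured, 7 were higher at day 5 than at day 0 (63.6%, against 17.4% of all genes) and the other 4 were not called. At day 3 the counts were 2 higher (18.2%, against 13.5% of all genes) and 1 lower (9.09%, against 13.1%). Krt8, a keratin of simple epithelia, was 1.69 higher at day 5, Sox17 0.80 and Cldn4, a tight junction protein, 0.84 higher. Among the 16 primitive and visceral endoderm markers, which share Gata4, Gata6, Sox17, Sox7, Ttr and Hnf4a with that list, 10 rose and 4 fell by day 5 (62.5% higher, against 17.4% of all genes). Col4a1 and Lamb1, of the basement membrane, were 1.25 and 0.79 higher, and Cubn and Amn, the endocytic receptor pair of visceral endoderm, had changes of -1.33 and -1.30. Of 12 trophectoderm markers, which include Krt8 and Hand1, 5 were higher (41.7%, against 17.4% of all genes) and 1 lower (8.33%, against 17.6%) at day 5. The list mean was 8.42 to 8.45 at day 5, against 7.69 to 7.81 at day 0. The keratins Krt19, Krt18 and Krt7 were 3.03, 2.50 and 1.79 higher at day 5, and Fgfr2, a receptor of Fgf ligands, was the lower one, with a change of -1.47. Cdx2 was above the background limit on all 12 arrays and was not called at day 5, and Elf5 and Tpbpa, the second of which counts among the 5, were under it on all 12. What part such cells have in the signals of Foxa2, Hhex, Eomes and other members was not tested.

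Among the paraxial mesoderm genes, 3 of 7 fell by days 3 and 5 (42.9%, against 13.1% and 17.6% of all genes), and the other 4 were not called against day 0 at those days. Tcf15, a bHLH factor of somites and also of the epiblast, had 9.52, 9.46 and 9.63 at day 0, 9.84, 9.91 and 9.88 at day 1, 8.87, 8.86 and 8.98 at day 3 and 8.12, 8.09 and 7.90 at day 5. No 2 days overlapped, and after a rise at day 1 each later day was lower than the one before. Tcf15 rose by 0.34 ± 0.07 at day 1 (adjusted p = 0.0082), and it fell by 0.63 ± 0.07 at day 3 (adjusted p = 2.21e-05) and at day 5 the change was -1.50 ± 0.07 (adjusted p = 7.19e-09), a 2.83-fold decrease.

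Meox1, a homeobox factor of somites, had 6.57, 6.20 and 6.64 at day 0, 6.05, 6.33 and 6.39 at day 1, 5.93, 5.83 and 5.68 at day 3 and 5.95, 5.74 and 6.10 at day 5. It lay near the background limit at day 0 and under it on every array of days 3 and 5, so that its decreases of 0.66 ± 0.13 at day 3 (adjusted p = 0.00182) and 0.54 ± 0.13 at day 5 (adjusted p = 0.0049) ended in background. Foxc2, a forkhead factor of somites, had day means of 6.79, 6.82, 6.38 and 6.33 and was also close to the limit, with a change of -0.46 at day 5 (adjusted p = 0.000451). Foxc1, its paralog, was 0.47 higher at day 5 than at day 3 (adjusted p = 0.00409) and was not called against day 0.

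Tbx6, a T-box factor, and Msgn1, a bHLH factor, which together specify presomitic mesoderm, were not called in any comparison. Tbx6 ran from 6.85 to 7.05 over the 12 arrays, with a change of 0.04 at day 5, and Msgn1 from 7.11 to 7.38, with a change of 0.03. Meox2 was at background. Of 12 other paraxial and somite genes, 1 was higher (Lfng, 0.49) and 1 lower (Fgf18, -0.52) at day 5, 8.33% each and below the shares of all genes (17.4% and 17.6%). At day 3 the counts were 2 and 2 (16.7% each, against 13.5% and 13.1% of all genes).

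Of the 6 heart and lateral mesoderm genes, 2 rose, both at day 5 (33.3%, against 17.4% of all genes). Mef2c, a MADS-box factor of cardiac and skeletal muscle, had 5.83, 6.16 and 5.91 at day 0, 6.0, 5.90 and 6.15 at day 1, 6.17, 6.01 and 6.10 at day 3 and 6.56, 6.94 and 6.88 at day 5. It was under the background limit on the 9 arrays of days 0, 1 and 3 and above it on all 3 of day 5. Mef2c was 0.83 ± 0.11 higher at day 5 than at day 0 (adjusted p = 5.51e-05), a difference measured from background. Tbx20, a T-box factor of the heart, had 7.18, 7.31 and 7.12 at day 5, above the 6.87, 6.93 and 6.74 of day 0, and its change was 0.36 ± 0.09 (adjusted p = 0.00928).

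Isl1, Nkx2-5, Hand1 and Hand2, factors of the heart fields and lateral plate, were not called. Their day means were 6.14 to 6.40, 7.71 to 7.77, 6.91 to 7.05 and 6.61 to 6.78. Of 15 other heart genes, 2 were higher at day 5 (13.3%, against 17.4% of all genes) and 1 was lower (6.67%, against 17.6%). Actc1, cardiac alpha-actin, had a day mean of 11.13 at day 5, against 8.39 at day 0, a change of 2.74 (adjusted p = 1.15e-07), Myh7, a myosin heavy chain, was 0.84 higher, and Hopx, a homeodomain-only protein, had a change of -0.36. Across this list the day 5 median was 0.00, so that the rise of Actc1 was not shared by most of it.

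Among the blood and endothelium genes, Kit had the largest change and Kdr an early, lasting one. At day 5, 1 of 5 was called higher and 1 lower (20.0% each, against 17.4% and 17.6% of all genes). Kit, the receptor of stem cell factor, had 10.02, 10.10 and 10.03 at day 0, 9.41, 9.56 and 9.40 at day 1, 10.35, 10.22 and 10.24 at day 3 and 11.31, 11.70 and 11.60 at day 5. The arrays of the 4 days did not overlap, with day 1 the lowest and day 5 the highest. Kit fell by 0.60 ± 0.09 at day 1 (adjusted p = 0.000885) and rose by 1.48 ± 0.09 at day 5 (adjusted p = 4.87e-08), and it was the 1 member that was lower at day 1 and higher at day 5, as were 72 of all genes. Day 3 was 0.21 higher than day 0 and missed the threshold (adjusted p = 0.099).

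Kdr, a Vegf receptor of endothelial and lateral mesoderm precursors, had 7.91, 8.03 and 7.89 at day 0, 7.14, 7.50 and 7.27 at day 1, 7.64, 7.20 and 7.39 at day 3 and 7.43, 7.54 and 7.62 at day 5. All 9 later arrays were below the day 0 arrays, and days 1, 3 and 5 overlapped. Kdr fell by 0.64 ± 0.11 at day 1 (adjusted p = 0.00264), by 0.54 ± 0.11 at day 3 (adjusted p = 0.00276) and by 0.42 ± 0.11 at day 5 (adjusted p = 0.00961). Kdr and Pdgfra were the 2 members called lower at days 1 and 3 than at day 0, as were 685 of all genes. Of these 2, only Kdr was also called lower at day 5.

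Etv2, an Ets factor that specifies blood and endothelial precursors, had 7.17, 7.17 and 7.20 at day 3, above the 6.52, 6.61 and 6.92 of day 0. It was 0.50 ± 0.10 higher at day 3 (adjusted p = 0.00191) and 0.58 lower at day 5 than at day 3 (a log2 change of -0.58, adjusted p = 0.000744), with a day 5 mean of 6.61. Tal1 and Fli1, factors of the same lineages, had day means of 6.78 to 6.94 and of 6.46 to 6.57 and were not called. Of 15 other genes of blood and endothelium, 2 rose (13.3%, against 17.4% of all genes) and 4 fell (26.7%, against 17.6%) by day 5. Flt1, another Vegf receptor of the endothelium, had a day mean of 9.76 at day 5, against 7.50 at day 0, and Tek, an angiopoietin receptor, was 0.81 higher. Runx1, a factor of blood stem cells, had 8.25 at day 5, against 9.56 at day 0, and Pecam1, Esam and Lmo2 were also lower, with changes of -1.11, -0.84 and -0.38.

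Among the mesenchyme genes, Prrx1 fell, Msx2 and Twist2 rose and Pdgfra dipped and returned. At day 5, 2 of 6 were called higher (33.3%, against 17.4% of all genes) and 1 lower (16.7%, against 17.6%). Prrx1, a homeobox factor of limb and craniofacial mesenchyme, had 7.89, 7.80 and 7.74 at day 0, 7.58, 7.66 and 7.58 at day 1, 6.52, 6.43 and 6.61 at day 3 and 6.55, 6.40 and 6.69 at day 5. The arrays of days 3 and 5 lay just above the background limit, more than 1 log2 unit under day 0. Prrx1 fell by 1.29 ± 0.08 at day 3 (adjusted p = 9.96e-08) and by 1.27 ± 0.08 at day 5 (adjusted p = 5.47e-08), and the step between days 1 and 3 carried it, with day 3 lower by 1.09 than day 1 (a log2 change of -1.09).

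Msx2, a homeobox factor and target of Bmp signals, had 7.42, 7.37 and 7.48 at day 0, 7.67, 7.75 and 7.57 at day 1, 7.36, 7.28 and 7.40 at day 3 and 8.11, 8.17 and 8.15 at day 5. The day 5 arrays stood above all others, and days 0 and 3 overlapped. Msx2 rose by 0.72 ± 0.06 at day 5 (adjusted p = 1.01e-06) and by 0.24 ± 0.06 at day 1 (adjusted p = 0.0244), and the day 1 call was lost without any 1 of day 0 replicates 1 and 2 and day 1 replicates 1 and 2 (adjusted p of 0.0718 to 0.108). Its paralog Msx1 had day means of 7.23 to 7.32 and was not called.

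Pdgfra, the receptor of mesenchyme and primitive endoderm for platelet-derived growth factor, had 11.78, 11.75 and 11.81 at day 0, 11.45, 11.50 and 11.42 at day 1, 11.31, 11.11 and 11.12 at day 3 and 11.65, 12.07 and 11.92 at day 5. Days 1 and 3 lay below day 0, and the day 5 arrays lay on both sides of it. Pdgfra was lower by 0.60 ± 0.09 at day 3 than at day 0 (a log2 change of -0.60, adjusted p = 0.000288) and 0.70 ± 0.09 higher at day 5 than at day 3 (adjusted p = 0.000108), and day 5 against day 0 gave 0.10 ± 0.09 (adjusted p = 0.449). The day 1 change of -0.32 (adjusted p = 0.0405) was lost when 1 of 9 arrays was left out, any array of days 0 and 1, day 3 replicates 2 or 3 or day 5 replicate 3 (adjusted p of 0.0506 to 0.126). Eomes and Pdgfra were the 2 members called lower at day 3 than at day 0 and then higher at day 5 than at day 3, a course that 605 of all genes shared.

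Twist2, a bHLH factor of dermal mesenchyme, had 7.38, 7.25 and 7.35 at day 5, above the 6.94, 6.70 and 7.05 of day 0, a change of 0.43 ± 0.08 (adjusted p = 0.000777). Pdgfrb, the second receptor of its family, had day means of 7.13 to 7.26 and was not called. Fibroblast markers moved beside these genes: 9 of 17 were lower at day 3 than at day 0 (52.9%, against 13.1% of all genes), with 2 higher (11.8%, against 13.5%). At day 5 the counts were 3 lower (17.6%, as over all genes) and 4 higher (23.5%, against 17.4%). Fbln2, an extracellular matrix protein, changed by -1.23 at day 3 and by -1.58 at day 5, and Col1a2, a collagen chain, by -1.44 at day 3 and by -0.21 at day 5, which was not called. Others went the other way, with Tagln, an actin-binding protein of smooth muscle, 1.67 higher at day 5 and Mmp2, a matrix metalloproteinase, 0.82 higher at day 3, and Acta2, smooth muscle actin, had changes of -1.51 at day 3 and 0.60 at day 5. The part of such cells in the signals of Prrx1 and Pdgfra was not tested.

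**Figure D4:**
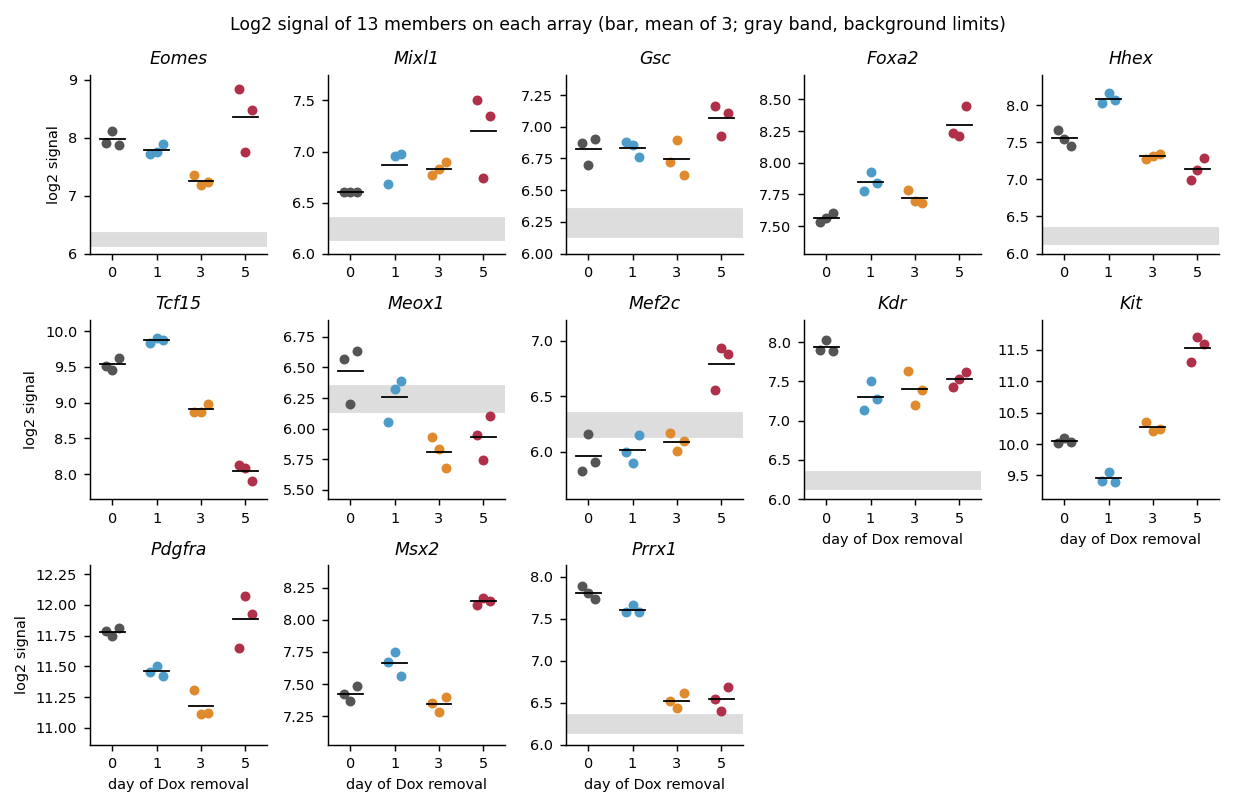
Log2 signal on each array of the 13 members given in full, by day of Dox removal; points are single arrays, bars the mean of 3, and the gray band the range of the background limits, drawn where the axis reaches it. Kit and Tcf15 separate all 4 days, Prrx1 drops toward the band at day 3, and Mef2c leaves it at day 5; each panel has its own axis, which does not start at 0.

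The signals that act on the streak are a separate list of 16 genes. Of these ligands, antagonists and targets of Wnt, Bmp, Fgf and Nodal signaling, 7 rose (43.8%, against 17.4% of all genes) and 6 fell (37.5%, against 17.6%) by day 5 against day 0, and by day 3 the counts were 2 (12.5%, against 13.5%) and 6 (37.5%, against 13.1%). Bmp2 was 1.71 higher at day 5 (adjusted p = 3.56e-08), with signals of 8.98, 9.20 and 9.23, against 7.50, 7.50 and 7.28 at day 0. Fgf5, a ligand of the primed epiblast, had day means of 7.74, 8.69, 9.45 and 9.61 at days 0, 1, 3 and 5. Among the 6 lower ones, Gdf3, a Tgf-beta ligand, and Fgf4 had changes of -0.93 and -1.12, and Bmp4 had -1.93 at day 3 and -0.29 at day 5.

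Of 10 regulators and products of the epithelial to mesenchymal transition at the streak, 4 were higher (40.0%, against 17.4% of all genes) and 2 lower (20.0%, against 17.6%) at day 5 than at day 0. Snai1, the zinc finger repressor of E-cadherin, was 1.27 higher (adjusted p = 6.22e-08), and Zeb2 0.97 higher, while Snai2 and Zeb1, their paralogs, had changes of -0.76 and -0.78. Cdh1, E-cadherin itself, was 0.33 higher. At day 5 against day 3, 7 of the 10 were higher (70.0%, against 13.0% of all genes) and the other 3 were not called. Vim, the intermediate filament vimentin, had day means of 12.47, 12.30, 11.48 and 12.52 at days 0, 1, 3 and 5, with a change of -0.99 at day 3 and of 0.05 at day 5.

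**Figure D5:**
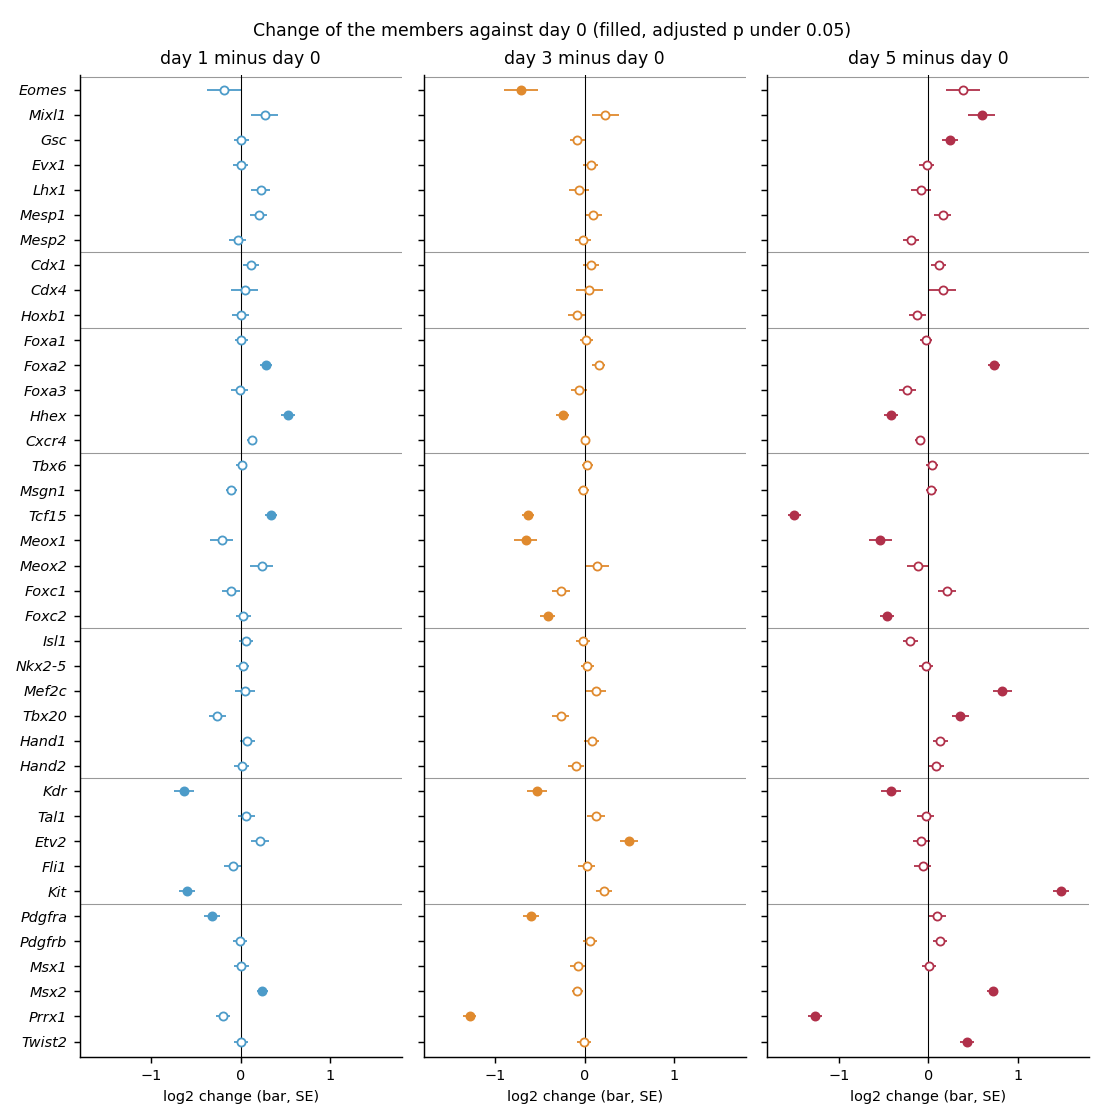
Log2 change of each member at days 1, 3 and 5 minus day 0 (x axis; points, fitted change; bars, SE; filled points, adjusted p under 0.05), with horizontal lines between roles. Points of 21 members stay within -0.24 and 0.23 and are open in all 3 panels, and filled points reach from -1.50 (Tcf15) to 1.48 (Kit) at day 5.

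Of all 19938 genes, 9937 were called in at least 1 of the 5 comparisons, and of the 39 members 18 were. The 21 members with no call between any 2 of the days compared are Evx1, Lhx1, Mesp1, Mesp2, Cdx1, Cdx4, Hoxb1, Foxa1, Foxa3, Cxcr4, Tbx6, Msgn1, Meox2, Isl1, Nkx2-5, Hand1, Hand2, Tal1, Fli1, Pdgfrb and Msx1. Their changes against day 0 lay between -0.24 and 0.23, and their day means between 4.18 and 7.88. Of these, 4 were at background throughout and 16 were above the limit on every array. That split depends on the limit. With the 99th percentile limit, Lhx1, Mesp2, Foxa1, Foxa3, Hand2 and Fli1 were also at background on every array. Tbx6, Hand1, Tal1 and Pdgfrb were then under it on some arrays. Standard errors of the changes of members ran from 0.05 to 0.19. Changes of about 2 standard errors or more could miss the threshold in the limma fit. That of Eomes at day 5 did, as did that of Tbx20 at day 3 against day 0 (-0.27 ± 0.09, adjusted p = 0.0512). A missed threshold does not show that a gene was unchanged.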

How the data were processed

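Messenger RNA of 12 arrays was analysed. The authors normalized the arrays with RMA in Affymetrix Expression Console (version not given in the sources used here) and deposited log2 values, 1 per probe set, which ran from 1.61 to 14.69 with array medians of 6.92 to 7.05. Precision is limited by the number of arrays, which carry no read depth.

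Of 35557 probe sets, 21789 had a single symbol in the platform annotation. These were averaged per gene, which gave 19938 genes, and the 1621 sets with several symbols and 12147 without one were used in 1 alternative only. Genes were tested with limma 3.58.1 (R 4.3.3) on the log2 values, with a mean per day in 1 model of 12 arrays, 8 residual and 4.63 prior degrees of freedom, Benjamini-Hochberg adjustment over all genes and a threshold of 0.05. The fit was first tested on simulated data. For a single gene, 3 arrays against 3 allow no two-sided exact permutation p under 0.1. Errors are SE from the fit. Tables and plots used Python 3.11.15, pandas 2.3.3 and matplotlib 3.10.9.

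Background was set by the 95th percentile of sensory receptor genes, since no detection p-values were used. The numbers of the replicates were not used to pair the samples in the main fit. Deviations of same-numbered arrays from their day means correlated between -0.17 and 0.071 in 18 pairs. In 36 pairs of other numbers they correlated between -0.131 and 0.178. This gave no sign of pairing, but so few arrays cannot show that the samples were unpaired.

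The members and all lists were chosen with earlier results of these data known. Values on every array are given for members called against day 0 with a change of 0.5 or more and for Eomes, Mixl1, Gsc and Foxa2. Of other lists, up to 3 called members with the smallest adjusted p at day 5 and called members of the opposite direction are named. Several genes outside this rule were named after their values were seen, among them Wnt3, Wnt8a, Sp5, Fgf8, Nodal, Vim, Cdh1 and the genes named from the marker lists. Alternatives were the replicate block, each array left out, other probe set summaries, no dim genes, quantile normalization, a trended robust variance, array weights, only the 2 days compared, the methods' analysis of variance and other background limits.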

Additional observations from a re-analysis of the deposited data

How the results depend on the processing

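Of 50 called changes of members in the 5 comparisons, 41 stayed called with their direction in every alternative run for that comparison. The methods' analysis of variance, which tests only the time course, is outside this tally. Meox1 was dropped from the run without dim genes, so its calls were not tried there. Of the 50, 9 lost the call in at least 1 alternative, and 0 changed sign. The 9 were Foxa2, Msx2 and Pdgfra at day 1, Eomes and Hhex at day 3 and Gsc at day 5 against day 0, Meox1 and Pdgfra at day 3 against day 1, where leaving out 1 of 4 and of 9 arrays gave an adjusted p of 0.0592 to 0.105 and 0.0566 to 0.15, and Gsc at day 5 against day 3. Leaving out each array gave 4 to 8 members called at day 1 (7 with all arrays, and 4 without day 0 replicate 1, day 0 replicate 2 or day 1 replicate 2), 7 to 10 at day 3, 13 to 16 at day 5, 6 to 10 at day 3 against day 1, 11 to 14 at day 5 against day 3 and 16 to 20 over the time course. Over all genes, day 1 gave 1236 to 2355 calls, against 2180 with all arrays. The methods' analysis of variance with Bonferroni adjustment and a change over 2-fold called 3 members and 420 genes over the time course. The F test, with no fold threshold and a less strict adjustment, called 19 and 9083. With Benjamini-Hochberg adjustment and no fold threshold, the analysis of variance called 17 members and 8555 genes. It did not call Mixl1 and Gsc, the 2 streak factors called higher at day 5 than at day 0. With the replicate number as a block, 6, 9 and 14 members were called at days 1, 3 and 5, and the block ended the calls of Pdgfra and Msx2 at day 1 (adjusted p of 0.0694 and 0.0518), of Hhex at day 3 (0.0526), of Gsc at day 5 (0.063) and of Pdgfra at day 3 against day 1 (0.0748), and no other call of a member.

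With the limit at the 90th percentile of sensory receptor genes, 1 member was at background throughout, at the 99th percentile 14 and at the median of all genes 23, against 4. Signs changed only for changes that were not called. With single arrays left out, Gsc at day 1 (0.01) ranged between -0.055 and 0.048, Mef2c at day 1 (0.05) between -0.019 and 0.15, Mixl1 at day 3 against day 1 (-0.04) between -0.135 and 0.014, Kdr at day 3 against day 1 (0.10) between -0.012 and 0.208 and Prrx1 at day 5 against day 3 (0.02) between -0.052 and 0.093, and Gsc was -0.002 after quantile normalization and Mixl1 0.006 with array weights. Where no cause is given, the cause was not tested. Weak signals near the background limit restrict what can be said of Meox1, Foxc1, Foxc2, Isl1 and Mef2c. With the 99th percentile limit, Mixl1, Gsc, Tbx20, Etv2, Prrx1 and Twist2, which had called changes, were also under it on some arrays. Their changes are thus between weak signals too.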
